A study of Mus musculus with 6 samples.

Results

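The Myc, Max and Mxd network is a set of 10 genes for basic helix-loop-helix leucine zipper proteins (Myc, Mycn, Mycl, Max, Mxd1, Mxd3, Mxd4, Mxi1, Mnt and Mga). The genes were taken by name, and all 10 were found among the 18182 genes measured. They were read by 27 of the 34909 probe sets that carry 1 gene symbol, and the brightest probe set by mean signal stands for each gene. RNA came from GFP-positive limb cells of mouse embryos that carry Tg:Pax7-nGFP, a transgene for nuclear GFP under Pax7, on a C57BL/6:DBA2 background. Limb buds at E12.5 and limbs at E17.5 were digested with trypsin and sorted, and each age has 3 arrays, lettered A, B and C and described as biological replicates. All 6 samples carry the transgene, and cells were defined at both ages by GFP and not by Pax7 protein. Whether each array held 1 embryo or several is not given in the sources used here.

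As background, Myc, N-Myc and L-Myc bind DNA only as dimers with Max, at the E-box CACGTG, where they recruit histone acetyltransferases and raise transcription of genes for growth, nucleotide synthesis and ribosome production. Mxd1, Mxd3, Mxd4, Mxi1 and Mnt compete for Max and recruit Sin3 and histone deacetylases to the same sites, and Mga joins a T-box domain to a Max-binding domain in a repressive complex. Mycn is known for its expression in the early limb bud and in embryonic progenitors, and Myc for its expression in dividing myoblasts, which lose it as they differentiate.

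The regulatory sequence of the member that changed most is shown first. The 250 bases before the start of Mycn (RefSeq, GRCm38.p6, chr12:12941837-12942086, minus strand) hold 3 matches to the E2F consensus, searched as TTTCGCGC, TTTGGCGC, TTTCCCGC and TTTGCCGC on both strands. The matches are in capitals. The first 2 overlap, from base -183 to -172, and the third lies from -168 to -161.
Mycn: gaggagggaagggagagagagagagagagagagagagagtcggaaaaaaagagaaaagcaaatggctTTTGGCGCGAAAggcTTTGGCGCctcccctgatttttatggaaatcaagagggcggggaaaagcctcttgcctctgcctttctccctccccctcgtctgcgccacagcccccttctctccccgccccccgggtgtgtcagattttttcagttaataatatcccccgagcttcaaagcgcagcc

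Of the 9 members with a promoter window (250 bases before to 50 after the start), Mycn alone held such a match, against 3.81% of the 14442 measured genes with a window and 2.26% of all 32851 windows. Myc had no window in the sources used here, so its promoter was not searched for either motif. The E-box CACGTG, which reads the same on both strands, was found in the windows of 3 members (Max, Mnt and Mxd4), against 10.2% of the measured genes and 7.15% of all windows. None of the 3 members that passed the test below had it there. The stretches with that E-box, in capitals, are shown because they are the network's own binding sequence. For Max it spans the start itself, from -3 to 3 (chr12:76962236-76962275, minus strand), for Mnt it starts at -123 (chr11:74830777-74830816, plus strand), and for Mxd4 at -219 (chr5:34187914-34187953, minus strand). A match is a description of these letters and not a measured site.
Max: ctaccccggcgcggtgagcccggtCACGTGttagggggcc
Mnt: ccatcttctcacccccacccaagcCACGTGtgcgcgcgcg
Mxd4: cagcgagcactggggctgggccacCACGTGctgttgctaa

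Values are log2 signals after GCRMA, in which probe sets without specific signal lie mostly under 4. A difference is E17.5 minus E12.5 with the standard error (SE) and the Benjamini-Hochberg adjusted p of limma over all 18182 genes, and a gene was called at an adjusted p under 0.05. The array medians were 3.38 to 3.47, and the number of arrays limits the precision. Arrays A and B of E17.5 were unusually alike: over the 8758 genes averaging 6 or more, their differences had an SD of 0.152, where other pairs within an age had 0.412 to 0.551, and the 10 members differed between them by at most 0.27. They may not be independent samples. Results are therefore also given with these arrays averaged and counted as 1 sample, and p-values measure only the spread between the arrays. Of 11 measured muscle progenitor markers none was under 4 on every array, and 4 were called higher and 1 lower at E17.5 (median 0.90). Pax7 rose from 11.46 ± 0.28 to 12.37 ± 0.15 (SD, n = 3 arrays per age; difference 0.91, limma adjusted p = 0.0105), Fgfr4 by 1.64, Chodl by 2.31 and Vcam1 by 3.39, whereas Pax3, a marker of early migrating progenitors, fell by 2.56 (adjusted p = 0.0142). The fall of Pax3 was not called without E12.5 C. Myf5, Myod1, Cdh15 and Des were at 0.90, 0.15, 0.92 and 0.66, and Met and Dmrt2 at -0.53 and -0.40, and these were not called.

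At E17.5 Mycn was 4.76-fold lower than at E12.5, while 2 genes of the opposing Mxd group, Mxd3 and Mxd1, were 1.96-fold and 1.77-fold higher. Myc, Mycl, Max, Mxd4, Mxi1, Mnt and Mga did not pass the test, and 3 of them had an unadjusted p under 0.05 (limma). The network therefore had 2 members higher, 1 lower and 7 not called. The antagonists did not all move alike, with Mxd4, Mxi1 and Mnt at 0.57, 0.06 and -0.54. Over all genes 16.9% were called, 8.21% higher and 8.73% lower, and over the 8758 genes with a mean of at least 6, where all 10 members lie, 26.4% were called, 13.2% higher and 13.2% lower. The members' 20% higher and 10% lower lie near the shares of genes this bright, so the counts are no result about the network. The median difference of the 10 members was -0.24, against 0.00 over all genes and -0.08 over those with a mean of at least 6. With E17.5 A and B averaged 1 member was higher and 1 lower, against 5.62% and 4.54% of all genes (10.2% in all). For that fit no share was taken for genes as bright as the members.

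**Figure D1:**
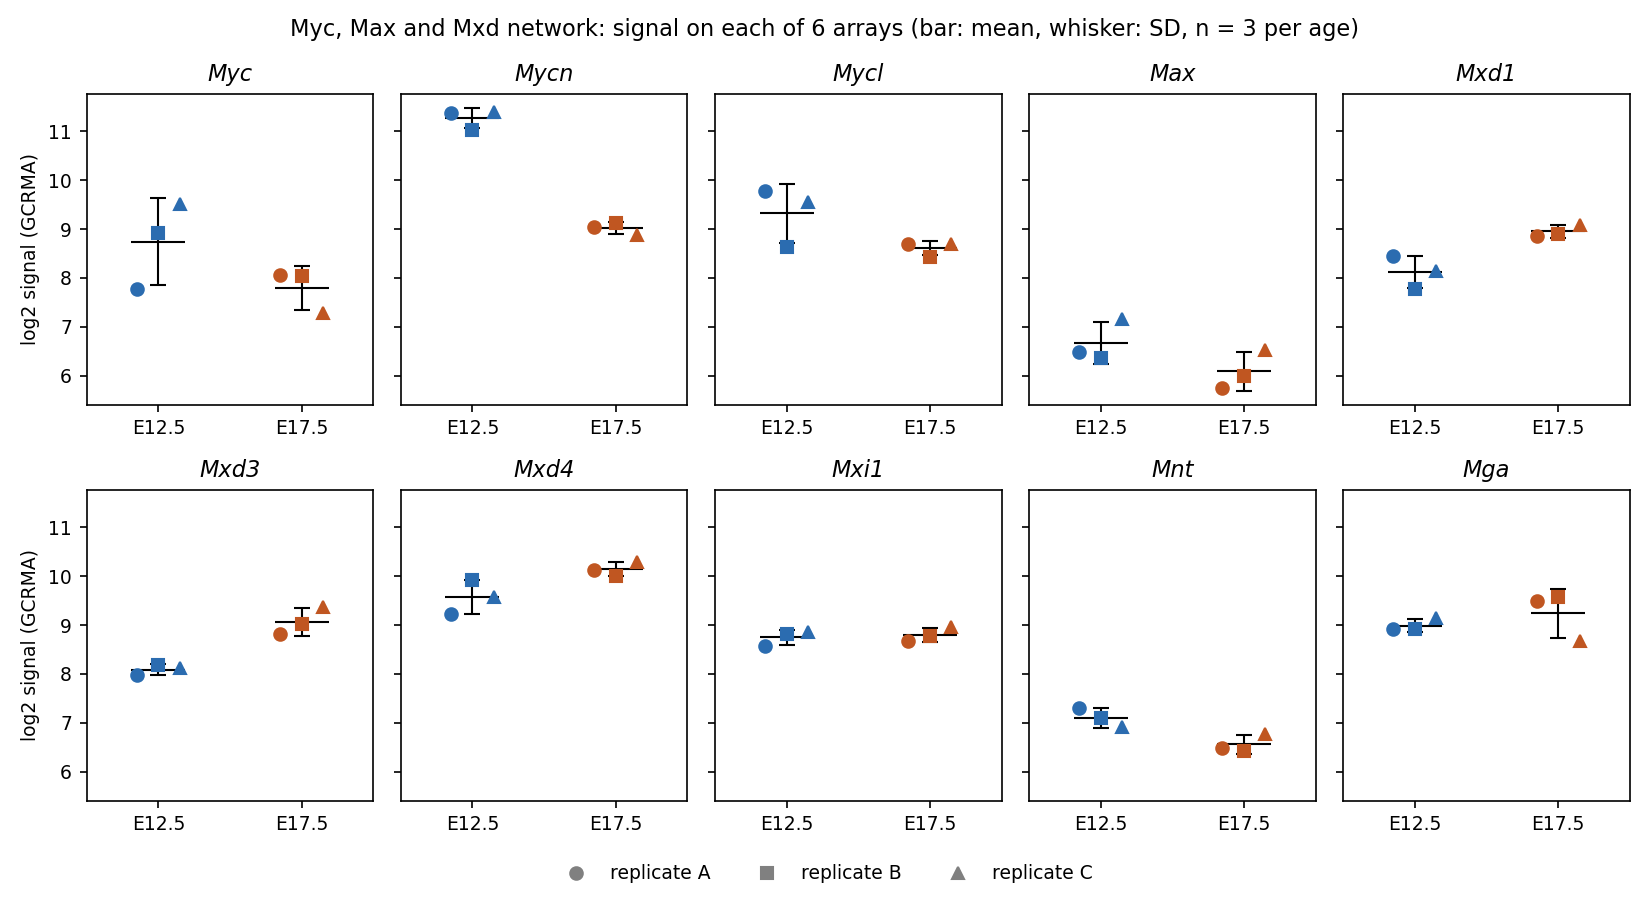
Log2 signal after GCRMA (vertical axis) of the 10 network genes on each array at E12.5 (blue) and E17.5 (orange). Symbols give the replicate, bars the mean and whiskers the SD of 3 arrays. The E17.5 arrays of Mycn lie between 8.87 and 9.13, all below the E12.5 arrays, and those of Mxd1 and Mxd3 lie above theirs. Each panel is a different probe set, so heights are read within a panel.

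Among the activators, Mycn, which encodes N-Myc, stood at 11.38, 11.03 and 11.39 on the E12.5 arrays A, B and C, and at 9.05, 9.13 and 8.87 on the E17.5 arrays. The ages lay far apart, and the arrays of each age within 0.36 and 0.26 of each other. The mean fell from 11.27 ± 0.21 to 9.02 ± 0.13 (SD, n = 3 arrays per age; difference -2.25, SE 0.14, limma adjusted p = 0.000182). The signal at E17.5 remained far above the background range. The fall was called under each of the 18 alternative settings tried, and without any 1 array it was -2.37 to -2.18. It became much smaller, -0.90, only where the mean of the gene's 3 probe sets was taken, as the others were dimmer and differed less. One of these stood at 4.97, 5.40 and 5.66 at E12.5 and at 4.95, 4.94 and 4.79 at E17.5 (difference -0.45, limma adjusted p = 0.376 over all probe sets), and the other was at 2.86 to 2.92 on all arrays. Why the probe sets of Mycn disagree was not tested.

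Myc, the founding member of the family, was read by 1 probe set, at 7.77, 8.92 and 9.52 at E12.5 and at 8.07, 8.05 and 7.28 at E17.5. Arrays B and C of E12.5 were higher than every E17.5 array, but array A lay among them, so the ages overlapped. The difference was -0.94 (SE 0.46, 95% interval -2.04 to 0.16, limma adjusted p = 0.254), so the interval holds no change as well as a fall of 4.11-fold. Without 1 array the difference was -1.42 to -0.55. It was called only without E12.5 replicate A (-1.42, limma adjusted p = 0.033), and was smallest without E12.5 replicate C (adjusted p = 0.579).

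Mycl encodes L-Myc. Its 3 E12.5 arrays stood at 9.77, 8.63 and 9.55, and its E17.5 arrays at 8.70, 8.43 and 8.69. Replicate B of E12.5 lay with the later age, and the difference was -0.71 (SE 0.30, limma adjusted p = 0.176). It was -1.05 to -0.48 without 1 array, and was called only without that replicate (-1.05, limma adjusted p = 0.0114). The same array had the highest summed signal of 9 fibroblast and mesenchyme markers at E12.5 (14.57 on the log2 scale, against 13.23 in both A and C) and the lowest of 11 muscle progenitor markers (14.03, against 14.64 and 14.49). The part of these cells in the Mycl values was not tested. For Mycn the fall was as large without that array (-2.37).

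Whether Myc and Mycn changed unequally was tested on their log2 difference within each array. Myc minus Mycn was -3.61, -2.11 and -1.87 at E12.5 and -0.98, -1.08 and -1.59 at E17.5, so the ages did not overlap and the balance moved toward Myc by 1.31. The exact two-sided permutation p was 0.1, the smallest that 3 arrays against 3 can give. With E17.5 A and B averaged the shift was 1.22 (exact p = 0.2, the smallest possible with 3 samples against 2 being 0.2). With the mean of each gene's probe sets, dim ones included, the shift was -0.04 (exact p = 0.8).

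Max encodes the partner that Myc, N-Myc and L-Myc need for DNA binding. It stood at 6.49, 6.37 and 7.17 at E12.5 and at 5.76, 6.00 and 6.52 at E17.5. The ages overlapped, and the difference of -0.58 was within the spread of the arrays (SE 0.32, 95% interval -1.35 to 0.19, limma adjusted p = 0.32).

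Of the antagonists, Mxd3 differed most. This gene is known for expression in dividing cells, unlike other Mxd genes, which are known to rise when cells leave the cycle. Its main probe set stood at 7.97, 8.18 and 8.12 at E12.5 and at 8.81, 9.02 and 9.36 at E17.5. The mean rose from 8.09 ± 0.11 to 9.06 ± 0.28 (difference 0.97, SE 0.17, limma adjusted p = 0.0109), and the call held under all 18 settings, with the adjusted p up to 0.0484. Both other probe sets of Mxd3 had every E17.5 array above every E12.5 array as well, with differences of 1.13 and 1.25 (adjusted p = 0.0601 and 0.136 over all probe sets). These are readings of the same RNA and not further samples.

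Mxd1 encodes Mad1, a Max-binding repressor. It stood at 8.44, 7.78 and 8.15 at E12.5 and at 8.86, 8.89 and 9.09 at E17.5, with no overlap. The mean rose from 8.12 ± 0.33 to 8.95 ± 0.13 (difference 0.82, SE 0.19, limma adjusted p = 0.0309). This call was the less firm of the pair: it was lost with E17.5 A and B averaged (adjusted p = 0.0904) and when E12.5 B, E12.5 C or any E17.5 array was left out (adjusted p 0.0615 to 0.0982), although the difference stayed between 0.65 and 0.98. A dimmer probe set of Mxd1 stood at 2.73, 2.63 and 2.79 at E12.5 and at 4.69, 4.62 and 3.05 at E17.5, where replicate C was apart from A and B.

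Mxd4, a further Mxd repressor, had every E17.5 array above every E12.5 array, at 9.23, 9.93 and 9.57 against 10.13, 10.01 and 10.29. The difference of 0.57 did not pass the test (SE 0.19, 95% interval 0.11 to 1.02, limma adjusted p = 0.0985). Without 1 array it was 0.39 to 0.74, and was called only without E12.5 replicate B (0.74, limma adjusted p = 0.0368). In all, 3 members had non-overlapping ages with E17.5 higher and 2 with E17.5 lower, against 14.2% and 17.2% of all genes (31.4% in all). Of all genes 42.8% had a mean under 4, and no such share was taken for genes as bright as the members. These counts are therefore no result about the network.

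Mxi1, whose product binds Max and Sin3, had the smallest difference of the network. Its arrays stood at 8.57, 8.82 and 8.85 at E12.5 and at 8.68, 8.78 and 8.95 at E17.5, and the difference was 0.06 (95% interval -0.28 to 0.39, limma adjusted p = 0.902). A change of more than 1.31-fold in either direction lies outside that interval.

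Mnt encodes a broadly expressed antagonist of Myc. It lay at 7.31, 7.09 and 6.91 at E12.5 and at 6.49, 6.42 and 6.77 at E17.5. The ages did not overlap, and the E17.5 arrays were the lower ones, but the difference of -0.54 was not called (SE 0.21, limma adjusted p = 0.149). Its direction was opposite to that of Mxd1 and Mxd3.

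For Mga, the T-box member, 2 probe sets with clear signal disagreed. The brighter stood at 8.92, 8.91 and 9.15 at E12.5 and at 9.49, 9.57 and 8.67 at E17.5 (difference 0.25, SE 0.25, limma adjusted p = 0.666), with replicate C of E17.5 below all E12.5 arrays. The other stood at 8.16, 8.57 and 8.80 and at 7.79, 7.78 and 8.18 (difference -0.59, adjusted p = 0.157 over all probe sets). Without 1 array the brighter probe set was at 0.09 to 0.54. It was called higher only without E17.5 replicate C (0.54, limma adjusted p = 0.0403). No direction can be given for this gene.

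**Figure D2:**
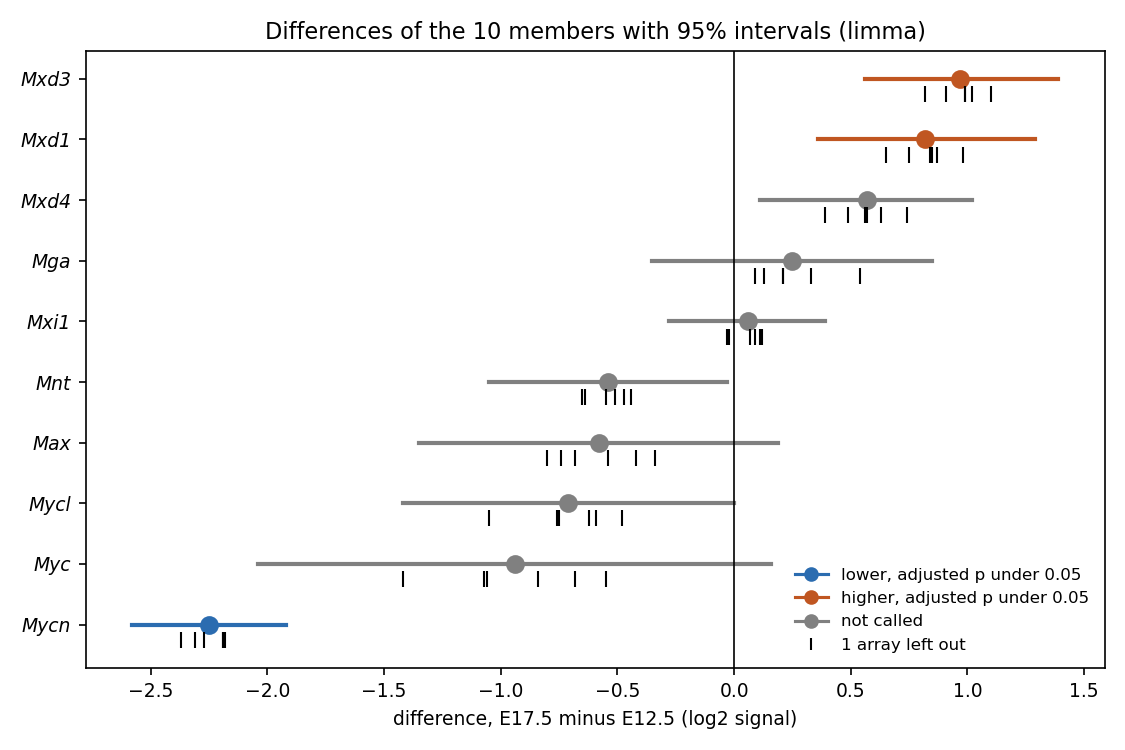
Difference of each network gene, E17.5 minus E12.5 in log2 signal (horizontal axis), with its 95% interval from limma. Black ticks are the differences with 1 of the 6 arrays left out. The interval of Mycn runs from -2.58 to -1.92, those of Mxd3 and Mxd1 lie above 0, and those of Myc, Max, Mxi1 and Mga include 0. Those of Mxd4 (0.11 to 1.02), Mnt (-1.05 to -0.03) and Mycl (-1.42 to -0.00) lie to 1 side of 0, but these genes were not called.

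Besides the main ones, the members had 17 other probe sets. None of these was called by limma over all 34909 probe sets, of which 11.3% were, and 8 of the 17 were under 4 on every array. The 3 calls among the members thus each rest on the brightest probe set of the gene.

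**Figure D3:**
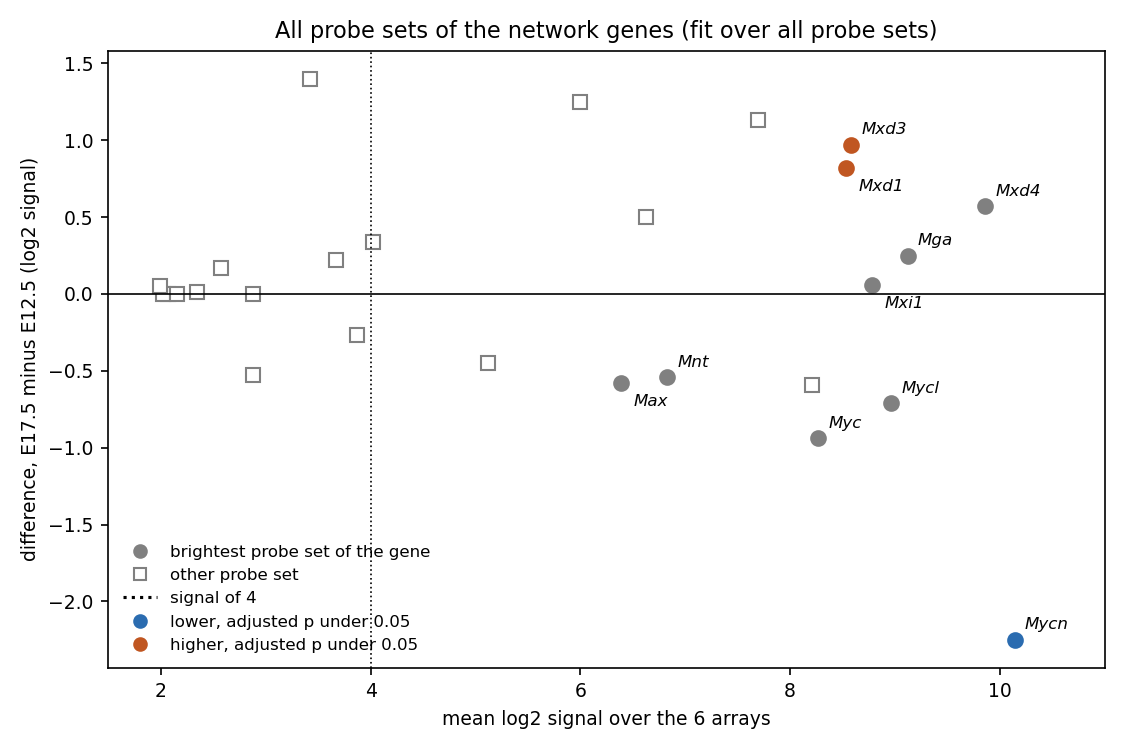
Mean log2 signal over the 6 arrays (horizontal axis) against the difference, E17.5 minus E12.5 (vertical axis), for all 27 probe sets of the network. Filled circles are the brightest probe set of each gene, open squares the other 17, and the dotted line marks a signal of 4. Both other probe sets of Mxd3, at 1.13 and 1.25, lie near its main one, whereas the other probe sets of Mycn, at -0.45 and 0.00, lie far from its main one.

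The partners and regulators of these proteins were taken from lists written from textbook knowledge. Of 20 measured coactivators and corepressors, 4 were lower, none was higher (limma, 1 at an unadjusted p under 0.05) and 16 were not called, with a median of -0.32. That is 20% lower, against 8.73% of all genes and 13.2% of those with a mean of at least 6, which all 20 have. The 4 were the acetyltransferase gene Kat2a (-0.86, SE 0.17, adjusted p = 0.0156), the helicase gene Ruvbl2 (-0.71), and the deacetylase genes Hdac1 (-0.63) and Hdac2 (-0.38). Kat2a and Ruvbl2 belong to coactivator complexes of Myc, and Hdac1 and Hdac2 to the Sin3 complex that Mxd proteins recruit. Sin3a and Sin3b, the scaffolds of that complex, were not called (-0.23 and -0.03). A further bright probe set of Kat2a was not called either. None of these 4 calls was left with E17.5 A and B averaged or without E17.5 A, where limma gave 5 lower at an unadjusted p under 0.05. Without E17.5 B or E12.5 C only Hdac1 of the 4 was still called, and Ruvbl2 was not called without E12.5 B. The largest difference of the list was upward, Bin1 at 1.22, and was not called (limma adjusted p = 0.07). Bin1 was called higher with the mean of probe sets, with array weights and in the fits of genes with a mean of at least 4 or 6.

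Of 19 measured regulators of Myc protein stability 1 rose, 2 fell and 16 were not called. These shares, 5.26% higher and 10.5% lower, lie near the 8.21% and 8.73% of all genes and below the 13.2% in each direction of genes with a mean of at least 6, so they are no result about the list. Axin1, a scaffold on which Myc is marked for destruction, rose from 9.25 ± 0.04 to 9.81 ± 0.05 (difference 0.57, SE 0.10, limma adjusted p = 0.00963). The ubiquitin ligase gene Trim32 fell by 1.02 and the mitotic kinase gene Plk1 fell by 0.62. The ligase genes Fbxw7, Skp2 and Huwe1 were at -0.34, 0.14 and -0.46 and were not called. The calls of this list were absent in the averaged fit and without E17.5 A or B (limma, 1 higher and 2 to 3 lower at an unadjusted p under 0.05), and both falls also without E12.5 B or C. Trim32 was not called without E12.5 A either, nor Plk1 without E17.5 C.

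Related E-box factors did not pass the test. Mlx, the partner of a parallel network, and Mlxip, its glucose-responsive dimer partner, were at 0.12 and 0.02, and Mlxipl was at 2.02 to 2.04 on all arrays. Usf1 and Usf2 were at 0.80 (SE 0.34, limma adjusted p = 0.179) and -0.49 (adjusted p = 0.537). Limma called 0 of the 3 genes with Mlx and 0 of the 7 other E-box factors, and 0 of either at an unadjusted p under 0.05. Of the fits without 1 array, Usf1 was called higher only in that without E17.5 replicate C (limma adjusted p = 0.0123, and up to 0.458 in the others).

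Genes known to be raised by Myc were more often lower than higher at E17.5, but most were not called. Of 53 measured genes of the list, 11 fell, 1 rose and 41 were not called, which is 20.8% lower and 1.89% higher. All 53 had a mean of at least 6, and of such genes 13.2% were lower and 13.2% higher, against 8.73% and 8.21% of all genes. The median was -0.24, and 43 differences were below 0. Ccnd2, the cyclin D2 gene, stood at 12.56, 12.73 and 12.65 at E12.5 and at 9.52, 9.63 and 9.54 at E17.5. It fell by 3.08 (SE 0.09, adjusted p = 2.65e-05), with the 6 other probe sets of the gene also called lower. Cad, which encodes the enzyme that starts pyrimidine synthesis, fell from 10.97 ± 0.24 to 9.54 ± 0.10 (-1.42, SE 0.14, limma adjusted p = 0.00109). The hexokinase gene Hk2 fell by 1.24 and the glucose transporter gene Slc2a1 by 0.80.

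The telomerase gene Tert (-1.16), the branched-chain aminotransferase gene Bcat1 (-1.01), the nucleoside diphosphate kinase gene Nme1 (-0.97), the RNA polymerase I gene Polr1b (-0.95), Cdc25a (-0.74), the purine synthesis gene Gart (-0.65) and the cap-binding factor gene Eif4e (-0.61) were also called lower. Slc7a5, an amino acid transporter gene, was the 1 that rose, from 8.18 ± 0.14 to 9.68 ± 0.10 (1.49, SE 0.13, limma adjusted p = 0.000596). Several nucleolar genes of the list were not called, among them Ncl (-0.29), Npm1 (-0.16), Fbl (0.02) and Nop58 (0.37). The classic target Odc1, for polyamine synthesis, was at -0.34 (SE 0.11, limma adjusted p = 0.0758).

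The number of falls depended on single arrays. It was 5 with E17.5 A and B averaged, 6 without E12.5 B or E17.5 A, 5 without E12.5 C and 4 without E17.5 B. Ccnd2, Cad, Hk2 and Slc7a5 were called in each of these fits and without each other array, with an adjusted p of at most 0.00763. Slc2a1 was called in all of these fits too. Tert, Bcat1, Nme1, Polr1b, Cdc25a, Gart and Eif4e each lost the call without at least 1 array. Of the fits without 1 array, Cdc25a and Gart were called only in that without E12.5 A. With E17.5 A and B averaged Nme1 was called, and Tert, Bcat1, Polr1b, Cdc25a, Gart and Eif4e were not. The other bright probe set of Nme1 was not called. Of the 44 list genes with a promoter window, 11 (25%) held CACGTG, against 10.2% of the 14442 measured genes with a window. It stood in 2 of the 10 with a fall and in 9 of the 34 not called. The fallen ones are Nme1 and Eif4e, and the stretch of Eif4e from -88 to -49 (chr3:138527180-138527219, plus strand) is shown with the E-box in capitals as an example.
Eif4e: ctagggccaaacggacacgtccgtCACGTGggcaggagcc

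Among 12 genes known to be held down by Myc, 6 rose, 1 fell and 5 were not called (50% and 8.33%, averaged fit 5 and 1), with 9 of the 12 at a mean of at least 6. Over all genes 8.21% were higher and 8.73% lower, and 13.2% in each direction of those with a mean of at least 6. Rises were 4 to 6 without 1 array, and 4 with values under 4 raised to 4. Ndrg1, a stress and differentiation gene named for its repression by N-Myc, stood at 6.86, 7.21 and 6.84 at E12.5 and at 12.31, 12.31 and 12.34 at E17.5. It was 40.8-fold higher (difference 5.35, SE 0.13, limma adjusted p = 2.32e-05), and 2 other bright probe sets were called higher too. Its relative Ndrg2 rose by 2.75, the stress gene Gadd45a by 2.97, and the cell cycle inhibitor genes Cdkn1b and Cdkn1a by 1.57 and 1.80. Col1a1 rose by 2.76 and Pdgfrb fell by 3.84, and both are also genes of connective tissue cells. Cdkn1a was not called without E12.5 A, B or C, nor Col1a1 without E12.5 C, E17.5 A or E17.5 B. With the mean of probe sets Cdkn1b was not called, and the median of the list was 0.28, against 1.11. Cdkn2b was at 2.64 to 2.68 on all arrays.

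**Figure D4:**
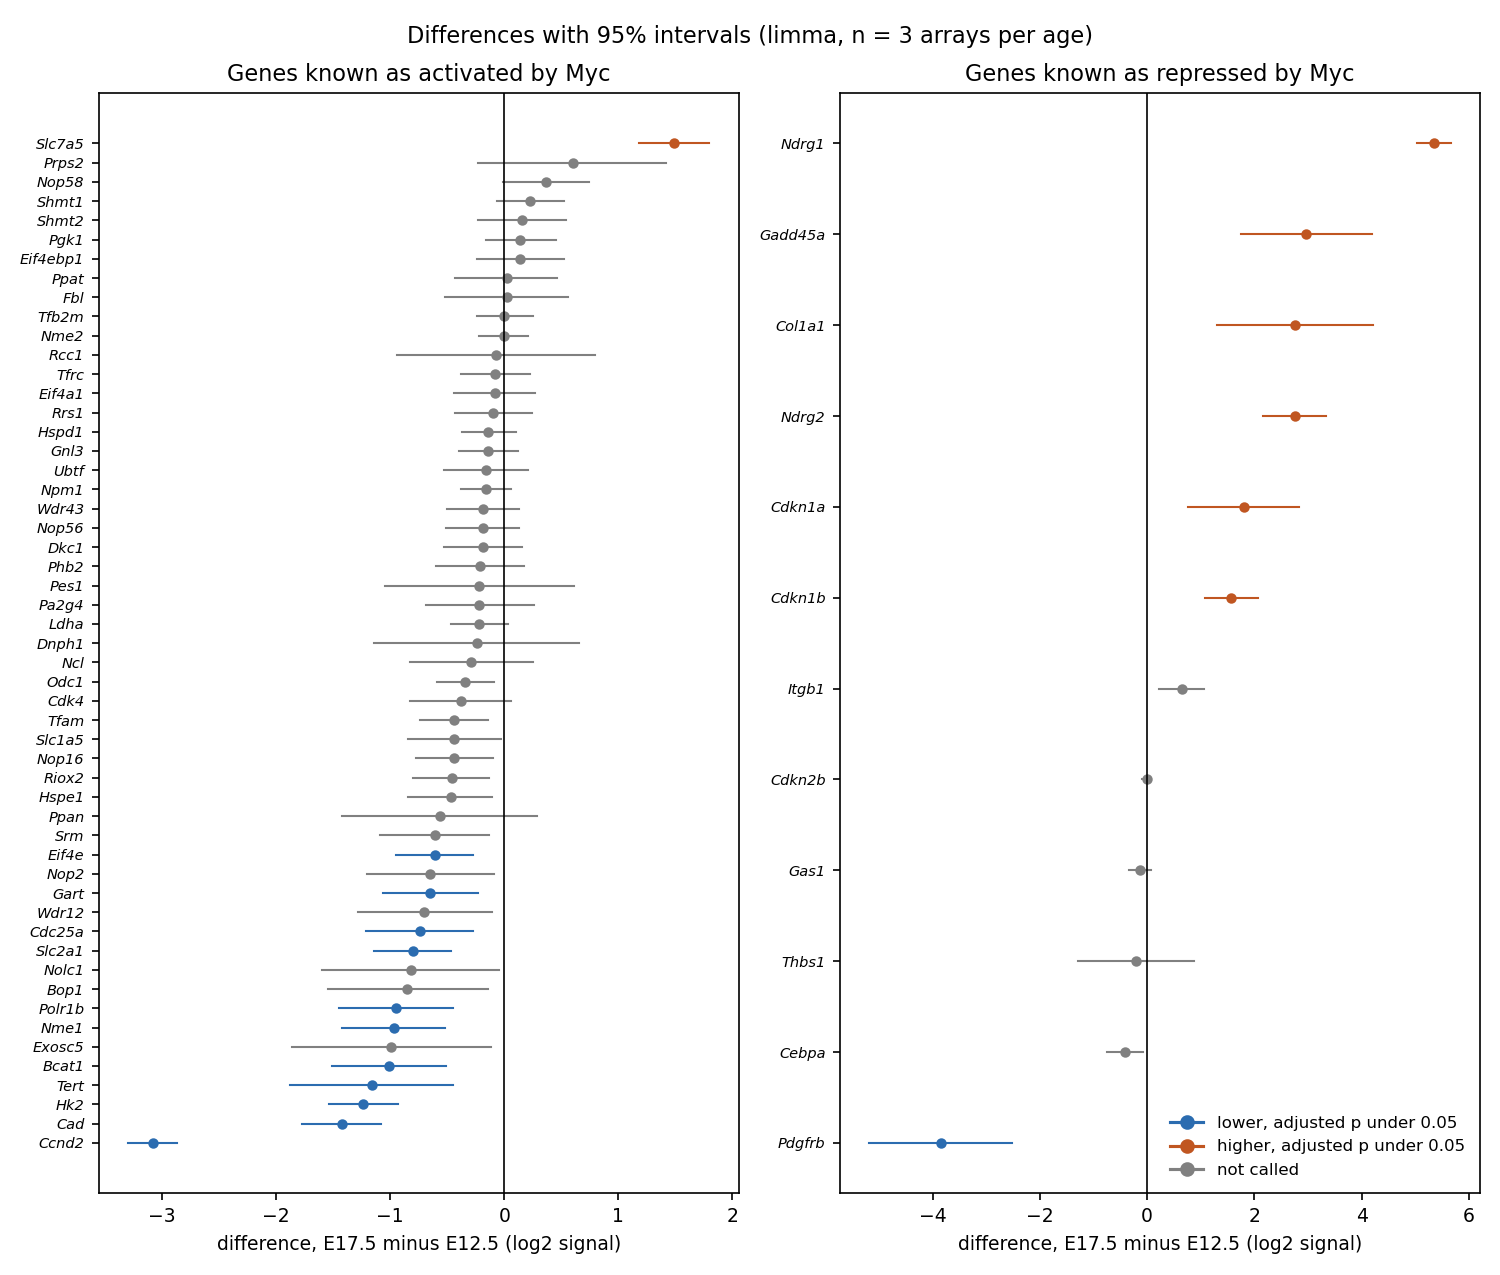
Difference, E17.5 minus E12.5 in log2 signal (horizontal axis), with its 95% interval from limma for 53 genes known as raised (left) and 12 known as held down by Myc (right). Blue genes were called lower and orange genes higher. On the left 11 were lower and 1 higher, and on the right 6 were higher and 1 lower.

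Values of proliferation and of other cell types stand beside these changes. Of 11 measured proliferation genes 0 were called by limma (0 higher and 2 lower at an unadjusted p under 0.05), with Pcna at 0.13, Mcm5 at -0.29 and a median of -0.13. Birc5 had the largest difference of the list, -0.62 (limma adjusted p = 0.083). Birc5 and Mcm5 were called lower without E17.5 replicate C and in the fits of genes with a mean of at least 4 or 6. Mcm5 was also called lower with centring on bright genes, and array weights gave 2 higher and 2 lower. In bulk RNA, fewer cells of a type and less RNA per cell cannot be told apart. The 9 fibroblast and mesenchyme markers moved in opposite directions, with 1 called higher, 3 lower and a median of -1.44. Pdgfra fell by 3.68, Twist2 by 3.21 and Prrx1 by 1.95, while Dpt rose from under 4 on every E12.5 array to 11.14 ± 0.09. Their summed signal on the log2 scale was 13.23 to 14.57 at E12.5 and 14.35 to 14.65 at E17.5, with Col3a1 the brightest member (12.60 ± 1.03 and 13.97 ± 0.21, not called). None of the 3 falls was called with the floor at 4 or without E17.5 B or E17.5 C, and each left-out array other than E12.5 C removed at least 1 of them. For 7 cartilage markers (0 higher by limma, 1 lower, median -0.75) the sum was 11.78 to 12.60 and 8.27 to 9.99. By far the brightest at E12.5 was Col9a1 (11.77 ± 0.31, and 7.76 ± 1.96 at E17.5), and 3 of the 7 differences were above 0. For 6 erythroid markers (0 higher, 3 lower, median -2.06) the sum was 13.03 to 14.94 and 5.79 to 6.39, with Hba-a1 under 4 on every array. By far the brightest at E12.5 was Hbb-y (14.08 ± 0.96, and 3.67 ± 0.69 at E17.5), and 2 of the 6 differences were above 0.

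For 6 glial and neural crest markers (3 lower, median -0.80) the sum was 12.51 to 13.10 and 9.80 to 10.16, with Sox10, Foxd3 and S100b under 4 on every array. The brightest were Erbb3 (12.68 ± 0.33 at E12.5 and 9.87 ± 0.20 at E17.5) and Ngfr (9.91 ± 0.35 and 6.26 ± 0.14), and 2 of the 6 differences were above 0. For 8 keratinocyte markers (3 lower, median -1.20) the sum was 8.88 to 9.92 and 8.19 to 8.35. For 8 leukocyte markers (1 higher, 1 lower, median -0.04) it was 7.94 to 9.19 and 7.68 to 8.13, with Ptprc and Itgam under 4 on every array. Of 8 endothelial markers 7 had a difference below 0 (median -0.55) and none was called lower, with Pecam1 and Tie1 under 4 on every array. Their sum was 6.85 to 8.22 at E12.5 and 10.14 to 10.43 at E17.5, a rise carried by Tek alone, which rose from 5.29 ± 0.55 to 10.18 ± 0.13. The 11 muscle progenitor markers summed to 14.03 to 14.64 and 15.33 to 15.40. Of 10 markers of differentiating muscle 5 were higher and 1 lower (median 1.67), and they summed to 14.13 to 14.80 and 15.33 to 15.38. The regulator gene Myog rose by 1.86, the fusion genes Mymk and Mymx by 2.99 and 3.06, and the actin gene Actc1 by 1.58. Ckm, for muscle creatine kinase, rose from under 4 on every E12.5 array to 5.27 ± 0.31. The troponin gene Tnnc1 fell by 2.25 (limma adjusted p = 0.0373), a call that was lost without E12.5 C, without any E17.5 array and in the averaged fit. These 5 rises were called without each array in turn. The part of these cell types and of the shift in muscle markers in the falls of Mycn and Ccnd2 and in the rises of Mxd1 and Mxd3 was not tested.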

How the data were processed

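RNA was measured on 6 single-colour Affymetrix arrays, 3 per age. The authors deposited log2 signals per probe set made with GCRMA, per the submitters' processing notes (its version was not stated there). The method models background from the sequence of each probe and compresses probe sets without signal into a low range. Per the labels' protocols, 100 ng of RNA was amplified from the 3' end, so signal depends on probe position.

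Gene names came from the platform annotation, with symbols updated by entrez ID to RefSeq (GRCm38.p6). Of 44994 probe sets 34909 had 1 symbol, 931 several and 9154 were not named here. One probe set per gene, the brightest, entered limma 3.58.1 in R 4.3.3 (lmFit, eBayes with trend, no filter), adjusted by Benjamini-Hochberg. The fit was tested on simulated data with independent arrays, which do not hold the likeness of E17.5 A and B. Members, lists and alternatives were chosen with earlier results of these data known. Named genes were all members and, per list, up to 3 called rises and falls with a mean of at least 6 in 1 age and no overlap (6 for raised targets), or the 2 brightest. Hdac2, Sin3a, Sin3b, Bin1, Fbxw7, Skp2, Huwe1, Mlxipl, Slc2a1, Polr1b, Cdc25a, Gart, Eif4e, Ncl, Npm1, Fbl, Nop58, Odc1, Ndrg2, Cdkn1a, Cdkn1b, Cdkn2b, Birc5 and the cell type markers named were added after their values were seen. Promoter windows are RefSeq's. Figures were drawn with matplotlib 3.10.9.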

Additional observations from a re-analysis of the deposited data

How the results depend on the processing

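The differences of Mycn and Mxd3 kept direction and call under all 18 settings at the threshold of 0.05, and Mxd1 kept direction under all 18 and its call under 10. At a threshold of 0.01 members were 0 higher and 1 lower (limma, Mxd3 at adjusted p = 0.0109), and 3 raised targets were lower. Array weights, which give E17.5 A, E17.5 B and E12.5 C weights of 4.98, 3.24 and 4.8 and E17.5 C 0.14, gave 4 members higher and 5 lower, and 3 raised targets higher and 34 lower, but called 8424 genes in all against 3080. Members higher were 1 with the floor at 4, 1 with the replicate block and 1 with E17.5 A and B averaged. Raised targets lower were 6 with the floor and 5 with that average. Without 1 array, members higher were 1 to 2 and lower 1 to 2, and raised targets were 1 to 2 higher and 4 to 13 lower. The shift of Myc minus Mycn reversed to -0.04 with the mean of probe sets and was 0.77 to 1.64 without 1 array. Mxi1 changed sign under 4 settings and Mga under 1, with no call.

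Whether the replicate letters pair the arrays is not known. Deviations from the age means correlated at -0.38, 0.255 and -0.0705 for A, B and C over 8758 genes. These values cannot decide it, because E17.5 A and B are so alike that their deviations are nearly the same. The replicate block gave 2105 called genes, with Mxd1 at 0.82 (adjusted p = 0.0684). Dim probe sets and the number of arrays limit what can be seen.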

Other observations

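Myc is also known as an immediate early gene, one that cells switch on within minutes of a stimulus. Of 18 such genes 13 rose at E17.5 and 0 fell (limma, 0 lower at an unadjusted p under 0.05), with a median difference of 3.22. That is 72.2% higher, against 8.21% of all genes and 13.2% of those with a mean of at least 6. Fosb, an AP-1 subunit gene, rose from 2.27 ± 0.31 to 10.34 ± 0.12 (difference 8.08, SE 0.24, limma adjusted p = 2.65e-05, and 6.34 with values under 4 raised to 4). The stress factor gene Atf3 rose by 4.85 and Junb by 4.61 on that raised scale, since most of their E12.5 values were under 4. Myc, at -0.94, was not higher with them. With E17.5 A and B averaged 11 of the list rose, and without 1 array 11 to 15.

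The genes whose profiles over the 6 arrays lay closest to those of the Myc genes were taken from 8757 genes with a mean of at least 6, by root mean square distance between centred profiles. Closest to Mycn were Trim2 (distance 0.12, difference -2.40), Zfp703 (0.12, -2.34) and Dab2 (0.14, -2.39). Closest to Myc were 5930403N24Rik (0.13, -1.02), Tbl3 (0.15, -1.07) and Ptbp1 (0.16, -1.08), each of which had its lowest E12.5 value in replicate A, as Myc did. Closest to Mycl were Prkar2a (0.14, -0.66), Lbx1 (0.14, -0.77) and Ddx31 (0.14, -0.66), each with its lowest E12.5 value in replicate B. These are descriptions over 6 arrays that share the age difference.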
